A study of Mus musculus with 8 samples.

Results

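The gene annotation of the mouse holds many short models that have 1 exon block, carry a provisional symbol (Gm plus digits) and sit wholly inside an intron of a larger gene on the same strand. Of 45706 rows in the deposited count table, 2529 were single-block Gm models of at least 1000 bases, and 919 of these lay inside the span of a multi-block gene without touching its exon blocks. At least 20 counts in at least 2 of the 8 libraries were reached by 512 of the 919, and the 300 models with the highest counts summed over the libraries, in 200 host genes, are described here. The members were thus chosen by their level, so their levels are a description. No comparison over time or between genotypes entered the rule, but the summed counts include the late libraries: 1 member, Gm37368 in Atp2b4, would not have reached 20 counts in 2 libraries without the WT libraries at 45 and 60 min, which hold 444 of its counts, and 0 members depended so on the late KO libraries. The sum would have stayed below that of the last member, with the other libraries scaled up, for 9 members without the late WT libraries and for 10 without the late KO ones. The last members inside were Gm43201 in Lcorl (476 counts), Gm37452 in Tshz3 (476) and Gm43061 in Trim33 (475), and the first outside were Gm43331 in Rap1a (475), Gm38365 in Dgkd (474) and Gm4787 in Cox16 (474). Gm26917, Gm42418 and Gm23935, which took most of every library, were left out of the members. At least 20 counts in every library were found for 298 of the 300 members, and the lowest count of a member in any library was 12.

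Chromatin-associated RNA is the RNA that stays with the chromatin pellet when cells are fractionated, and it is rich in transcripts still attached to RNA polymerase. RNA polymerase II copies introns and exons alike as it moves along a gene, and introns are usually removed and degraded soon afterwards, so intronic reads in such RNA report on recent transcription of the host more than on its stored messenger RNA. A count table made over exons normally hides introns, and intronic single-block models on the host's strand are places where such reads are counted under another name. Reads from the host's precursor RNA and reads from a separate transcript of the model cannot be told apart in these counts.

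The cells were primary mouse embryonic fibroblasts (MEFs) of the C57BL/6 strain, either wild type (WT) or crel-/-rela-/-, called KO below, which are homozygous mutant for the NF-kappaB subunits c-Rel and RelA. NF-kappaB is the family of transcription factors that tumour necrosis factor (TNF) releases into the nucleus. Cells were held overnight in medium with little serum and then given TNF at 10 ng/ml for 0, 15, 45 or 60 min. There was 1 library per genotype and time, 8 in all, and nothing in the labels says whether they came from separate cultures or animals. In the tests the 45 and 60 min libraries of a genotype were pooled as the late response against 0 min, so the p-values measure the spread between those times as well as between samples.

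Libraries held 12359817 to 15607331 counts, of which the 3 left-out models took 56.0% to 69.0%, and the 300 members held 0.914% to 1.14% of the other counts. Gene counts do not check the genotype label, since Rela had 324, 406, 704 and 589 WT counts at 0, 15, 45 and 60 min, and 306, 241, 291 and 324 KO counts, and Rel, the c-Rel gene, had 151, 173, 805 and 506 WT counts beside 478, 308, 538 and 633 KO counts. The labels do not say which parts of the genes the alleles remove. Nfkbia, a direct NF-kappaB target, had 204, 1916, 3264 and 2527 WT counts and 178, 121, 169 and 135 KO counts. Fibroblast markers were abundant in every library, at a summed 9297 to 13470 CPM (counts scaled to a common library size). All 12 macrophage markers had fewer counts in KO, with a summed level of 70.1 to 103 CPM in WT and 6.12 to 8.21 in KO, and Fcgr1 was at 0 in all KO libraries. Cartilage and bone markers stood at 404 CPM in KO at 0 min against 38.8 to 67.5 at the later KO times and 24.2 to 32.6 in WT. The KO library at 0 min, the baseline of every KO response, therefore stands apart, and the late KO counts of calls and medians by distance are also given against 15 min. In bulk RNA, fewer cells of a type and less RNA per cell cannot be told apart.

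The members were 1003 to 9720 bases long, with a median of 2594.5. The annotation classed 256 of them as TEC, a provisional class still awaiting experimental proof, 36 as sense intronic, 4 as processed pseudogenes, 2 as lincRNAs and 2 as processed transcripts, and 190 of the 200 hosts were protein coding. They lay 0.23 to 900.5 kb from the annotated 5′ end of the host, with a median of 41.6 kb, and 74 of them were in the host's first intron. Chromosomes 5, 1 and 3 held 90, 81 and 58 members, which is 30%, 27% and 19.3% of them against 7.75%, 7.07% and 5.76% of all genes tested. Of the single-block Gm models of at least 1000 bases, 18.5%, 20.1% and 16.1% lay on those chromosomes. An opposite-strand exon overlapped 13 members, an exon of another gene on the same strand overlapped 1, and 4 members had 2 possible hosts, of which the one with more counts was used.

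Counts per kb allow the level of a model to be set beside that of its host's exons. The median member held 64.4% of the counts per kb of its host's exons over the 8 libraries, and 75 members stood above their host. The highest counts per kb belonged to Gm37644 in Prrx1, a homeobox gene of limb and connective tissue mesenchyme, at 3097, which is 140% of its host's exons. Next came Gm26945 in Rian, an imprinted non-coding RNA gene, at 3044, Gm7265 in Nedd4, an E3 ubiquitin ligase gene, at 2725, Gm42929 in Cnn3, which encodes an actin-binding calponin, at 2456, and Gm38357 in Noct at 2275. The most counts in all, 12801, were in Gm38211 in Col5a2, a fibrillar collagen gene, yet per kb that was 15.0% of the host's exons. Across the 300 pairs, which share libraries, the log2 counts per kb of member and host had a Pearson r of 0.516.

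Messenger RNAs are usually cut and polyadenylated shortly after a hexamer, so the ends of the models were searched for it. The last 80 bases of 5 members on which the results turn are printed below in lower case, as written on the members' strand from the annotated transcripts on mm10, with the last AATAAA, the commonest polyadenylation hexamer, in capitals where one was found.
Gm43430 (inside Nfkb1, chr3:135650670-135650749, minus strand): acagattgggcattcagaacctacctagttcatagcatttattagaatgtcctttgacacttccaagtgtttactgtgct
Gm38357 (inside Noct, chr3:51234301-51234380, plus strand): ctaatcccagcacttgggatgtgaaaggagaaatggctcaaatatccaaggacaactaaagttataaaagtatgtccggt
Gm37368 (inside Atp2b4, chr1:133775210-133775289, minus strand): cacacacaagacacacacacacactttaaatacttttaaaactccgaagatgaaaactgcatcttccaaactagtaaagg
Gm38034 (inside Foxo1, chr3:52284230-52284309, plus strand): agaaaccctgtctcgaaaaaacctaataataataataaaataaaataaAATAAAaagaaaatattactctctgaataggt
Gm43509 (inside Ldb2, chr5:44751164-44751243, minus strand): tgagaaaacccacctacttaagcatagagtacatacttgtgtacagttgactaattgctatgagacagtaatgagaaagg
Of the 5, the Foxo1 model alone held the hexamer, 32 bases from its end and within an A-rich run. On the transcript strand, AATAAA lay in the last 50 bases of 39 of the 296 members with a sequence (13.2%) and of 316 of 2074 other single-block Gm models of at least 1000 bases (15.2%), and in the first 50 bases of 6 members (2.03%). The match is a description of letters and shows no use of a site.

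At 15 min almost no member had moved past 2-fold. A member, host or other gene was counted as past 2-fold at a time when its ratio, scaled with TMM (trimmed mean of M values), to 0 min was at least 2 in either direction, its 95% interval for counting error left out 1 and the higher library had at least 20 counts; this is a rule of size with no test. At 15 min in WT 1 member was higher and 0 were lower, where 0.857% and 1.19% of all genes were, and in KO there were 0 of each, where 0.585% and 1.15% of all genes were. At 45 min in WT 25 members were past 2-fold higher and 12 lower, which is 8.33% and 4% of the members beside 4.13% and 2.84% of all genes. At 60 min in WT the counts were 22 and 17, beside 5.01% and 3.35% of all genes. In KO 26 were higher and 4 lower at 45 min, beside 2.58% and 2.78% of all genes, and 38 were higher and 7 lower at 60 min, beside 3.02% and 3.22%. By their exonic counts, 5 of the 200 hosts were past 2-fold higher and 1 lower in WT at 45 min, and 7 and 0 at 60 min. In KO 2 hosts were higher and 0 lower at 45 min, and 3 and 1 at 60 min. Under scaling by total counts the split was 12 higher and 20 lower at 45 min and 17 and 29 at 60 min in WT. In KO it was 9 and 21 at 45 min. The share of all genes past 2-fold under that scaling was not counted, so these numbers are a description. Over all genes, the median late log2 fold change with total-count scaling was -0.22 in WT and -0.21 in KO. The ratio of a member to its host within a library does not depend on the scaling.

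In the late WT response, 23 of the 300 members rose (7.67%) and 14 fell (4.67%) at an adjusted p under 0.05, in edgeR's quasi-likelihood test with Benjamini-Hochberg adjustment over 15049 genes. The shares over all genes tested were 4.17% and 1.31%. Total-count scaling gave 9 higher and 15 lower, beside 304 and 280 of the 15049 genes. The 23 include Gm37368, which entered the members through the libraries in which it is high. The 9 members whose summed counts depended on the late WT libraries were not set apart, so the comparison with all genes is a description. For 21 of the 23 members that rose, the host's exonic log2 fold change had the same sign, and for 5 the host itself passed the test. The median log2 fold change was 1.23 over the 23 and 0.43 over their hosts, and the 14 members that fell had a median of -1.26, beside -0.62 for their hosts. Called members were picked for their size and their hosts were not, so these gaps are a description. Over all 300 members the median was 0.07, and over all genes it was -0.004.

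**Figure D1:**
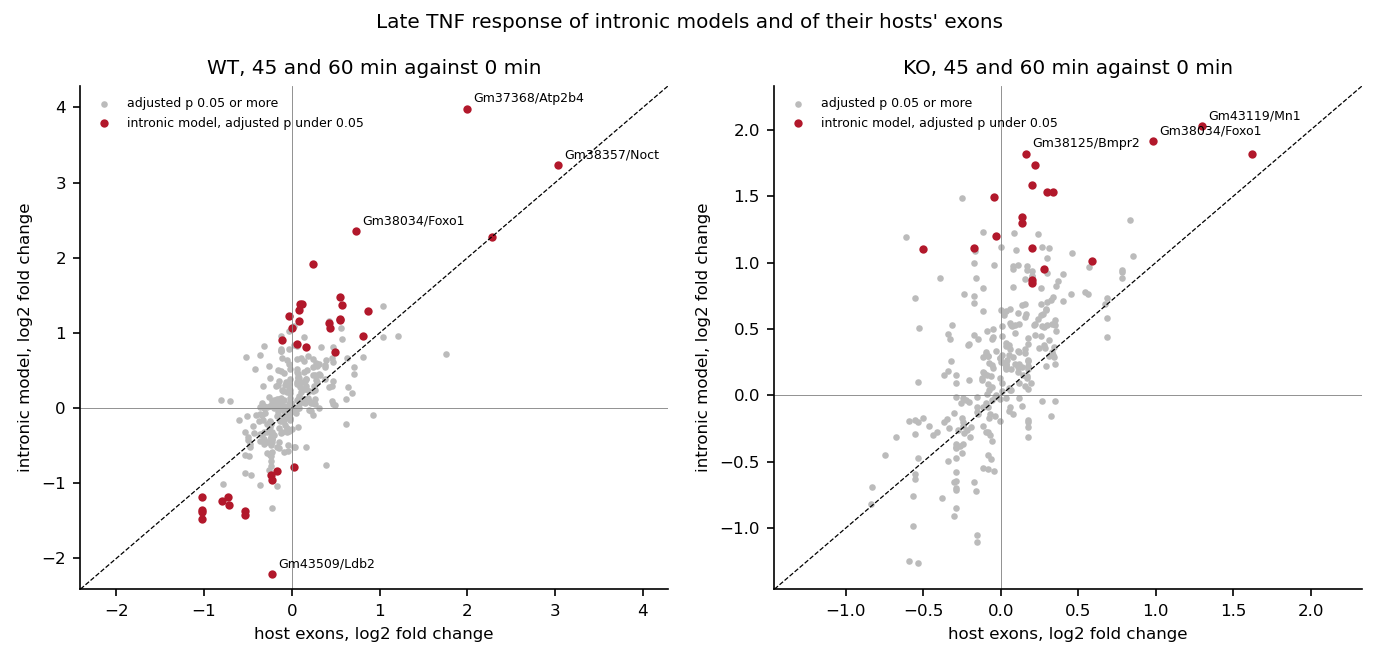
Log2 fold change of the late response (45 and 60 min against 0 min) of each member on the vertical axis against that of its host's exons on the horizontal axis, WT left and KO right, with called members in red and the line of equal change dashed. Members and hosts spread together with a Pearson r of 0.701 in WT and 0.601 in KO over 299 pairs, and the called members, picked by their vertical value, lie at its ends.

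Gm43430 is the member inside Nfkb1, the gene of the p105 precursor and p50 subunit of NF-kappaB and itself an NF-kappaB target. This TEC model of 3897 bases lies in intron 6 of the host, at chr3:135650670-135654566 on the minus strand of mm10, 37.0 kb from the host's 5′ end. It had 237, 230, 1306 and 819 WT counts at 0, 15, 45 and 60 min, and 207, 118, 186 and 187 KO counts. Only the WT libraries at 45 and 60 min were high, and once scaled to depth the KO libraries stayed near their own 0 min level. The host's exons had 1043, 1066, 4811 and 4615 WT counts and 783, 628, 654 and 835 KO counts. The late WT log2 fold change was 2.27 ± 0.27 (SE, edgeR adjusted p = 0.00036) for the member and 2.29 (adjusted p = 2.1e-05) for the exons. Between 45 and 60 min in WT the member's log2 ratio was -0.66, with a 95% interval for counting error of -0.79 to -0.53, while the exonic counts stayed close to level.

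Gm38357 lies in the first intron of Noct, which encodes nocturnin, a phosphatase with rhythmic expression, at chr3:51231917-51234380 on the plus strand and 7.5 kb from the host's start. Its counts were 162, 302, 1509 and 1325 in WT and 312, 295, 846 and 854 in KO, and it was the member past 2-fold at 15 min, at 1.01 on the log2 scale for WT (95% interval 0.73 to 1.29) and 0.48 for KO (0.25 to 0.72). Both genotypes were high at 45 and 60 min. The exons had 243, 317, 2104 and 1598 WT counts and 437, 325, 1141 and 937 KO counts. The late log2 fold change was 3.24 ± 0.21 in WT (edgeR adjusted p = 2.6e-06), beside 3.04 for the exons, and 1.81 ± 0.19 in KO (adjusted p = 0.0007), beside 1.62.

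Gm37368 in Atp2b4, the gene of a plasma membrane calcium pump, is given as a description with no test, since it entered the members through its late WT counts. It occupies chr1:133775210-133778421 on the minus strand, in intron 2, 22.6 kb from the annotated 5′ end, and it had 15, 27, 208 and 236 WT counts and 12, 14, 18 and 19 KO counts. The host's exons had 379, 326, 983 and 1814 WT counts and 324, 247, 254 and 232 KO counts. Member and exons were both high in the late WT libraries alone. In WT the exonic count at 60 min was well above that at 45 min, and the member's was close to it. Gm37368 is 1 of 5 members, among 240 whose host has a start in the RefSeq table of promoters, that lie upstream of every RefSeq start listed for the host; the others are Gm37334 in A330023F24Rik, Gm37760 in Casp8, Gm42725 in Smim14 and Gm29358 in Pnkd.

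Some members rose late in WT while the host's exons did not pass the test. This is no test of a difference between member and host, and the direct test of their ratio, given below, called 0 of 730 nested models late in WT. Gm36988, a sense intronic model in intron 5 of Frmd4a, a gene of a cell polarity scaffold, lies 298.8 kb from the host's start. It had 111, 139, 440 and 337 WT counts and 153, 123, 122 and 156 KO counts, so only the 2 late WT libraries were high. The exons had 1131, 1173, 1226 and 1257 counts in WT, and the late WT log2 fold changes were 1.92 ± 0.25 (edgeR adjusted p = 0.00072) for the member and 0.24 (adjusted p = 0.46) for the exons. Gm38034, in the first intron of Foxo1, a forkhead transcription factor gene, had 40, 46, 159 and 222 WT counts and 82, 62, 238 and 242 KO counts. Its log2 fold change was 2.36 ± 0.30 in WT (edgeR adjusted p = 0.00065) and 1.92 ± 0.27 in KO (adjusted p = 0.0056). The Foxo1 exons gave 0.73 (adjusted p = 0.18) and 0.98 (adjusted p = 0.095).

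The 8 pairs named most often here are plotted over time.

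**Figure D2:**
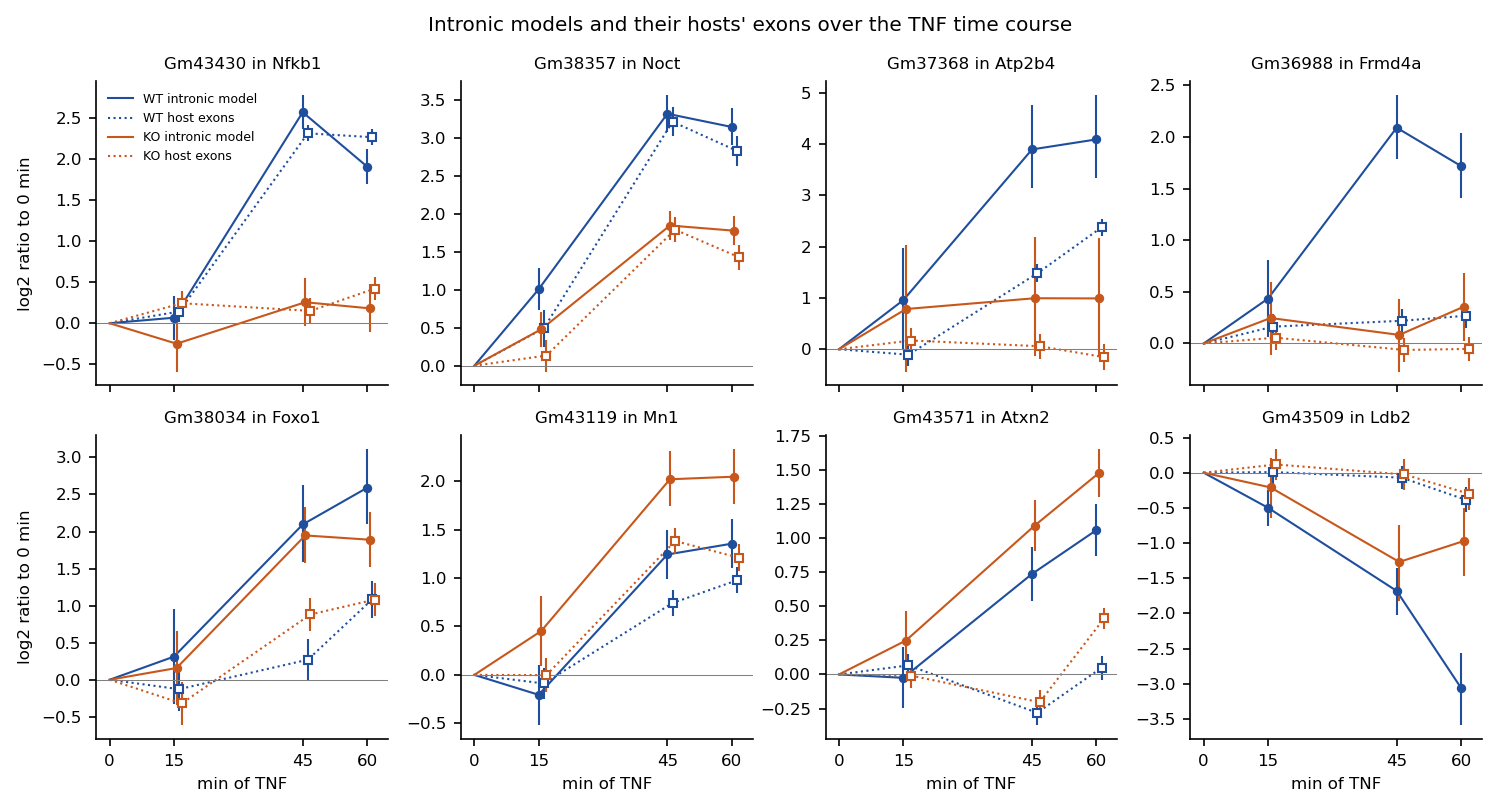
Log2 ratio to 0 min (vertical) against minutes of TNF (horizontal) for 8 members (filled points) and their hosts' exons (open points), WT in blue and KO in orange, bars giving 95% intervals for counting error in 1 library per point. The Nfkb1, Atp2b4 and Frmd4a models are high in WT late libraries alone, the Noct, Foxo1, Mn1 and Atxn2 models are high in both genotypes, and the Ldb2 model is low.

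Members that fell late in WT were led by Gm43509 in the first intron of Ldb2, a LIM-domain-binding cofactor gene. It had 334, 219, 97 and 37 WT counts and 128, 75, 40 and 52 KO counts, lowest in WT at 60 min. The Ldb2 exons had 631, 588, 559 and 445 WT counts and 403, 296, 298 and 261 KO counts. The late WT log2 fold change was -2.21 ± 0.35 (edgeR adjusted p = 0.0027) for the member and -0.22 (adjusted p = 0.6) for the exons, and for the member in KO it was -1.11 ± 0.40 (adjusted p = 0.17). All 4 members inside Gm4258, a processed-transcript gene on chromosome 1, fell, with log2 fold changes from -1.48 to -1.18 beside -1.02 (adjusted p = 0.018) for its exons; this host and Plxna2 were singled out after their values were seen. Gm37534, the lowest of them, had 879, 625, 340 and 245 WT counts and 475, 213, 210 and 265 KO counts. All 3 members in Plxna2, a semaphorin receptor gene, rose, by 1.17 to 1.48, beside 0.55 (adjusted p = 0.092) for its exons. Gm21816 in Mir99ahg, a microRNA host gene, fell by 1.36 ± 0.28 on the log2 scale (edgeR adjusted p = 0.013), and Gm7497 in Colec12, a scavenger receptor gene, by 1.42 ± 0.36 (adjusted p = 0.04). The Colec12 model lost its call without the WT library at 60 min, with DESeq2, with no filter on low counts and with 15 min as the baseline. The Mir99ahg model lost its call with DESeq2 and with no filter. Without the WT library at 60 min fewer members and fewer of all genes fell.

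In the late KO response 19 members rose (6.33%) and 0 fell, where the shares over all genes tested were 1.32% and 0.518%. For 10 members the summed counts reached those of the last member only with the late KO libraries. These were not set apart from the 19, so the comparison with all genes is a description. By an unadjusted p under 0.05 in the same edgeR test, 94 were higher and 20 lower. The share of all genes at that threshold was not counted, so the 94 and 20 are a description. DESeq2 called 10 members higher and 0 lower, beside 139 and 16 of the 15049 genes. The members' median log2 fold change was 0.27, beside 0.02 for their hosts' exons and -0.005 for all genes, and 207 of 300 members stood above 0. The median was 1.35 for the 19, picked for their size, and 0.20 for their hosts, and the host passed the test for 2. These counts rest on the KO library at 0 min that also stood apart in cartilage markers, whose part in the result was not tested. With 15 min as the baseline, 7 members rose and 1 fell, beside 72 and 52 of the 15049 genes. Without the KO library at 60 min fewer members rose, and fewer of all genes did, with a members' median of 0.22. A WT library enters this result through the shared estimate of spread, the scaling and the genes tested. Without WT at 45 min or at 60 min more members rose, and more of all genes did. The members' median was then 0.28 and 0.27. Total-count scaling gave 5 higher and 3 lower, beside 57 and 156 of the 15049 genes.

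Of the 23 members called higher late in WT, 22 lay above 0 in KO, and all 19 called higher in KO had a WT value above 0. Called in both were 8 members, Gm38357 in Noct, Gm43571 in Atxn2, Gm42819 in Notch2, Gm43119 in Mn1, Gm43009 in Camk2d, Gm38034 in Foxo1, Gm36970 in Col6a3 and Gm38125 in Bmpr2. With 15 min as the baseline 4 of these were called in both, Gm38357, Gm38034, Gm43119 and Gm36970. The KO calls of Gm38125, Gm43571 and Gm42819 were then lost (edgeR adjusted p = 0.058, 0.051 and 0.081), as was the WT call of Gm43009 (adjusted p = 0.47). Gm43009 kept its WT call under 9 of 16 alternatives and its KO call under 12 of 16. The member with the largest late KO fold change was Gm43119 in Mn1, a transcriptional coregulator gene, 6.2 kb from the host's start at chr5:111423589-111425710. It had 193, 155, 425 and 455 WT counts and 138, 128, 421 and 454 KO counts, low at 0 and 15 min and high at 45 and 60 min in both genotypes. Its log2 fold change was 2.03 ± 0.20 in KO (edgeR adjusted p = 0.00057), beside 1.30 (adjusted p = 0.0056) for the exons, and 1.30 ± 0.19 in WT (adjusted p = 0.0018), beside 0.86.

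The test of the difference between the genotypes' late responses called 2 members, both higher in WT, which is 0.667% of the members beside 0.492% of all genes, and 0 lower in WT, beside 0.00664%. They were Gm43430 in Nfkb1, with a difference of 2.05 ± 0.36 on the log2 scale (edgeR adjusted p = 0.028), and Gm38357 in Noct, with 1.42 ± 0.26 (adjusted p = 0.031). The exons gave 1.99 (adjusted p = 0.0024) for Nfkb1 and 1.42 (adjusted p = 0.077) for Noct. Both members lost the call without the KO library at 45 min and with 15 min as the baseline, and with no filter on low counts. The Noct model lost it also without KO at 60 min, with total-count scaling and with both early times as the baseline, keeping it under 9 of 15 alternatives beside 12 of 15 for the Nfkb1 model. For Gm36988 in Frmd4a the difference was 1.69 ± 0.34 (edgeR adjusted p = 0.054). The median difference over the members was -0.21, beside -0.04 for their hosts and 0.001 for all genes. It was -0.12 without the KO library at 60 min and -0.18 with 15 min as the baseline.

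Few hosts belonged to the known TNF response. Of 123 listed NF-kappaB and TNF target genes, 112 were tested, of which 70 rose and 0 fell late in WT at a median of 1.68 on the log2 scale, and 9 rose and 1 fell in KO. Only Nfkb1 and Mapkapk2, a stress-activated kinase gene, held a member. Gm37084 in Mapkapk2 had 744, 894, 767 and 684 WT counts and 834, 848, 846 and 845 KO counts, and its late log2 fold change was 0.07 ± 0.17 in WT and 0.39 ± 0.17 in KO (edgeR adjusted p = 0.87 and 0.26). Of 50 listed immediate early genes, 49 were tested, 14 rose and 2 fell late in WT and 7 rose and 2 fell in KO, and none hosts a member. Of 54 fibroblast and matrix genes, 4 rose and 1 fell late in WT, and 5 held a member, of which 3 rose: Gm36970 in Col6a3, Gm38009 in Lamc1, a laminin chain gene, and Gm29101 in Twist2, a mesenchymal transcription factor gene. Gm38211 in Col5a2 and Gm37644 in Prrx1 did not pass, at -0.51 and 0.03.

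The change of a member relative to its host was tested directly, with limma on the log2 ratio of member to host counts over 730 nested models, which include 298 members. In the late WT response 0 of the 730 passed (0%). Below an unadjusted p of 0.05 were 50 of the 298 members, 37 of them with the ratio higher, beside 72 of the 730. In the late KO response 6 passed, all members with a higher ratio, which is 0.822% of the 730 models. There 52 members were below the unadjusted threshold, 51 of them higher, beside 100 of the 730. For the difference between genotypes 0 passed (0%), with 11 members below an unadjusted p of 0.05, beside 24 of the 730. All 6 calls had a limma adjusted p of 0.039, and 0 were left without the KO library at 45 min, without that at 60 min, or with 15 min in place of 0 min as the baseline, where their adjusted p ran from 0.089 to 0.27.

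The 6 were Gm43658 in Clock, the circadian regulator, Gm42819 in Notch2, a receptor of the Notch pathway, Gm43571 in Atxn2, an RNA-binding protein gene, Gm36970 in Col6a3, a collagen VI gene, Gm38125 in Bmpr2, a bone morphogenetic protein receptor gene, and Gm43417 in Usp46, a deubiquitinase gene. They lay 3.0, 17.2, 3.8, 4.8, 37.9 and 14.9 kb from their hosts' 5′ ends. Gm43658 had 100, 89, 161 and 167 WT counts and 98, 64, 164 and 162 KO counts, while the Clock exons had 902, 764, 645 and 695 in WT and 814, 494, 394 and 499 in KO. The member was high and the exons low at 45 and 60 min in both genotypes, and the ratio's late KO log2 fold change was 1.61 ± 0.27. Gm43571 had 346, 315, 537 and 665 WT counts and 390, 314, 626 and 866 KO counts, beside 2244, 2177, 1718 and 2141 and 2511, 1691, 1641 and 2660 for the Atxn2 exons, with a ratio change of 1.18 ± 0.21; an opposite-strand exon overlaps this member. Gm36970 had 80, 55, 154 and 193 WT counts and 81, 69, 211 and 208 KO counts, beside 7543, 5310, 6829 and 6806 and 6819, 4380, 5970 and 6356 for the Col6a3 exons, with a ratio change of 1.51 ± 0.27. Both members were highest in the late libraries, where the late KO change of the exons did not pass (edgeR adjusted p = 0.81 for Atxn2 and 0.51 for Col6a3). The ratio changes of the others were 1.28 ± 0.22 for Gm42819, 1.66 ± 0.28 for Gm38125 and 1.72 ± 0.30 for Gm43417.

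Summed over all pairs, members made up 19.5%, 19.5%, 20.5% and 19.9% of the counts of members and host exons together in WT at 0, 15, 45 and 60 min. In KO the shares were 18.5%, 19.2%, 21.1% and 22.2%. The exact binomial 95% interval ran from 18.4% to 18.7% in KO at 0 min and from 22.1% to 22.4% at 60 min, and it covers counting error only. The median density of a member relative to its host's exons was 60.0%, 58.7%, 65.5% and 67.8% in WT and 55.8%, 55.9%, 65.0% and 72.4% in KO. Both genotypes stood higher at 45 and 60 min than at 0 and 15 min.

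Over the members of all hosts together, distance from the host's 5′ end went with the size of the late change. A member beyond 100 kb needs a host longer than that, and distance and host length were not separated. The 61 members within 10 kb had a median log2 ratio to 0 min of 0.39 at 45 min and 0.40 at 60 min in WT, the 59 members at 10 to 30 kb 0.18 and 0.15, the 100 members at 30 to 100 kb 0.02 and 0.09, and the 80 members beyond 100 kb 0.03 and -0.27. In KO the medians were 0.58 and 0.66 within 10 kb, 0.36 and 0.38 at 10 to 30 kb, 0.15 and 0.33 at 30 to 100 kb, and 0.02 and 0.05 beyond 100 kb. At 15 min they were 0.07, 0.04, 0.06 and 0.08 in WT and 0.10, 0.06, 0.01 and 0.02 in KO, from the nearest to the farthest group. The hosts' exons had medians, from the nearest to the farthest group, of 0.06, 0.06, -0.03 and 0.007 at 45 min, then 0.13, -0.02, -0.11 and -0.21 at 60 min in WT. In KO they were 0.14, 0.06, -0.007 and 0.02 at 45 min, then 0.15, 0.06, -0.04 and -0.09 at 60 min. Set against 15 min, the members' WT medians in the same order were 0.28, 0.15, -0.07 and 0.03 for 45 min, then 0.32, 0.05, -0.04 and -0.33 for 60 min. The KO medians against 15 min were 0.45, 0.27, 0.07 and 0.05 for 45 min, then 0.43, 0.33, 0.34 and 0.02 for 60 min. Within 10 kb 49 and 48 of 61 members in WT, and 51 and 53 in KO, stood above their own host. In the 3 farther groups, in order, 35 of 59, 53 of 100 and 42 of 80 did in WT at 45 min. At 60 min in WT 35, 57 and 32 did. In KO the numbers were 44, 64 and 44 at 45 min, and 49, 82 and 47 at 60 min. These are single libraries with no test of the groups, and members of 1 host are not independent. Each host was also given 1 value per group, the mean of its members there. The medians over hosts in WT were, in the same order, 0.39, 0.18, -0.005 and 0.11 at 45 min. At 60 min in WT they were 0.41, 0.15, 0.06 and -0.24. In KO these medians were 0.59, 0.38, 0.19 and 0.02 for 45 min, with 0.68, 0.33, 0.31 and 0.12 for 60 min. The group nearest the start was the highest in each of these, and the order of the others was less regular in WT at 45 min.

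**Figure D3:**
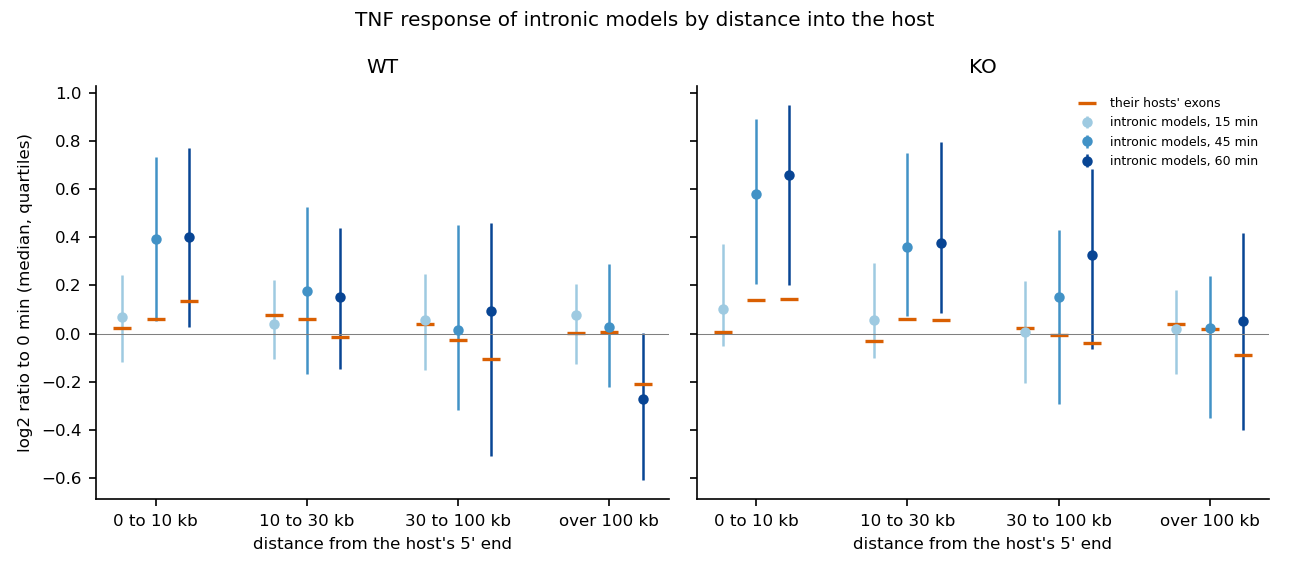
Median and quartiles of the members' log2 ratio to 0 min (vertical) in 4 groups by distance from the host's 5′ end (horizontal, kb), at 15, 45 and 60 min in WT and KO, with the median of the hosts' exons as orange dashes. At 45 and 60 min the group within 10 kb is the highest in both genotypes, and the group beyond 100 kb falls below 0 at 60 min in WT.

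Calls were counted in the same groups. Late in WT 9 of 61 members within 10 kb rose and 1 fell, 4 rose and 2 fell of 59 at 10 to 30 kb, 9 rose and 10 fell of 100 at 30 to 100 kb, and 1 rose and 1 fell of 80 beyond 100 kb. Late in KO 8, 5, 5 and 1 rose. The shares over all genes tested were 4.17% higher and 1.31% lower in WT and 1.32% higher in KO. Between 45 and 60 min the members beyond 100 kb had a median log2 ratio of -0.34 in WT, where 67 of 80 were below 0, and -0.04 in KO, where 43 of 80 were. Within 10 kb the medians of that step were -0.01 in WT and 0.02 in KO.

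Within single hosts the members gave no common order along the gene. Of the 46 hosts with at least 2 members, 28 had the first and last member at least 30 kb apart. The first stood above the last in 11 of the 28 in WT at 45 min and 13 at 60 min, and in 16 and 18 in KO. The median of first minus last on the log2 scale was -0.14 and -0.15 in WT at those times. In KO it was 0.19 and 0.23. Camk2d, a calcium- and calmodulin-dependent kinase gene with 6 members on chromosome 3, had later peaks in the members farther from its start, in both genotypes. Gm43011, 3.7 kb from its start, had 969, 996, 1334 and 950 WT counts and 1019, 920, 1612 and 1402 KO counts. Gm42515, 141.2 kb from the start, had 263, 197, 245 and 365 in WT and 249, 153, 257 and 466 in KO. On the CPM scale, Gm43011, Gm43010, Gm43009 and Gm43006, which lie within 61.4 kb, were highest at 45 min in both genotypes, and Gm42515 and Gm42514, beyond 141 kb, were highest at 60 min. From 45 to 60 min the log2 ratio of Gm42515 was 0.59 (95% interval 0.35 to 0.83) in WT and 0.78 (0.55 to 1.00) in KO, and that of Gm43011 was -0.48 (-0.60 to -0.36) and -0.28 (-0.39 to -0.18). The late log2 fold change of the Camk2d exons was 0.06 in WT and 0.20 in KO (edgeR adjusted p = 0.88 and 0.57). Late in KO 3 of the 6 members rose, Gm43010, Gm43009 and Gm43006, and all 3 lost the call without the KO library at 45 min. Gm43010 lost it also without KO at 60 min, and Gm43006 with 15 min as the baseline (edgeR adjusted p = 0.20).

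Med13l, a Mediator kinase module gene, had the nearest members, Gm43788, Gm43275 and Gm43274, highest at 60 min and the farther Gm43052 and Gm43051 highest at 15 min in WT. Gm43788, 42.0 kb from the start, had 323, 389, 465 and 567 WT counts and 444, 329, 439 and 636 KO counts. In Ldb2 the 2 members nearest the start had the lowest late WT values: beside Gm43509, Gm43503 at 116.1 kb had a log2 fold change of -1.33 (edgeR adjusted p = 0.17), with counts of 134, 132, 79 and 20 in WT and 77, 46, 38 and 19 in KO. Gm42981, 304.3 kb from the start, had 353, 266, 297 and 230 in WT and 186, 135, 146 and 140 in KO. Auts2, a chromatin regulator gene, held the most members, 12, and the farthest, Gm43483 at 900.5 kb, had 76, 87, 88 and 79 WT counts and 70, 64, 66 and 76 KO counts, with no late change in either genotype past the edgeR threshold.

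**Figure D4:**
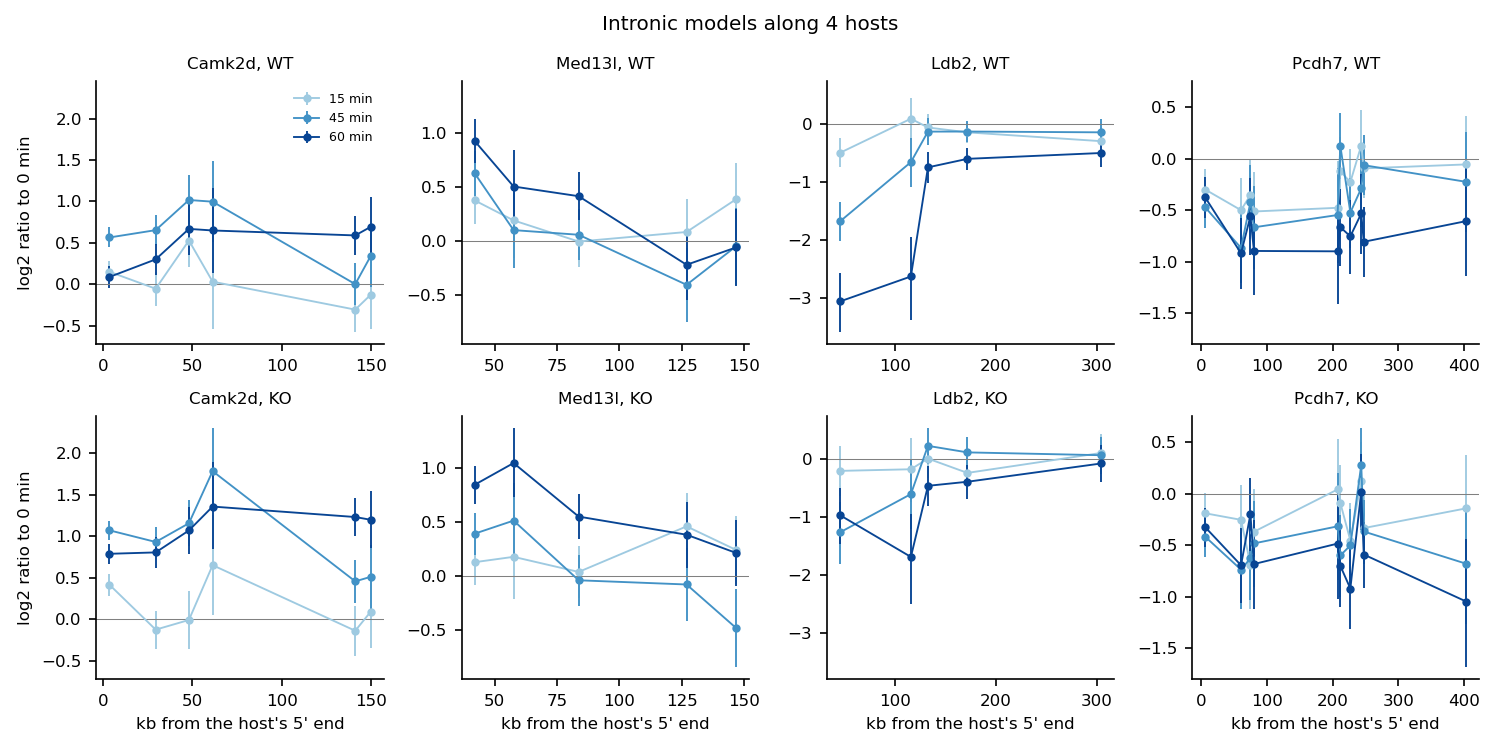
Log2 ratio to 0 min (vertical) of each member against its distance from the host's 5′ end in kb (horizontal) in Camk2d, Med13l, Ldb2 and Pcdh7, WT above and KO below, at 15, 45 and 60 min. In Camk2d the 45 min points lead near the start and the 60 min points lead beyond 141 kb, and in Ldb2 the first members are the lowest.

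Between genotypes, with time as a block, 23 members were higher in KO (7.67%) and 41 lower (13.7%), where 6.81% and 9.44% of all genes tested were. With 1 library per genotype and time, the times stood in for replicates. The p-values therefore cannot tell genotype from any other difference between the WT and KO cultures or their preparation. The 41 include Gm37368, which entered the members through its late WT counts, so its call is no support for a difference. Here the hosts moved with their members: of the 23 the host's exons had the same sign in 22 and passed in 16, and of the 41 the sign was shared by 41 and 27 passed. Across 299 pairs the Pearson r of member and host was 0.803. The ratio of member to host passed for 0 members and for 0.137% of the 730 models. Below an unadjusted p of 0.05 in limma were 56 members, beside 105 of the 730. These differences stand beside the lower macrophage markers in KO given above, whose part in them was not tested. Total-count scaling gave 8 higher and 78 lower, beside 477 and 2902 of the 15049 genes. Without the time block 8 and 11 passed, beside 359 and 708 of all genes. When 1 library was left out, the fewest members, and the fewest of all genes, were called without WT or KO at 45 min.

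**Figure D5:**
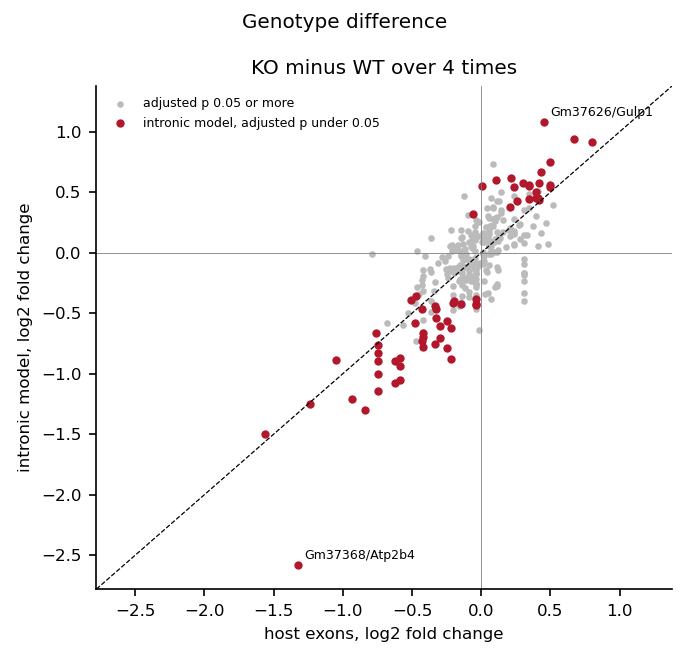
Log2 fold change of KO against WT over the 4 times of each member (vertical) against its host's exons (horizontal), with called members in red and the line of equal change dashed. The 299 pairs run along the line. Gm37626 in Gulp1 is highest among the called members, and Gm37368 in Atp2b4, which entered the members through its late WT counts, is lowest.

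Among the lowest in KO was Gm43430 in Nfkb1, at -1.50 ± 0.32 (edgeR adjusted p = 0.011), whose counts stand furthest apart at 45 and 60 min. The call was lost without the KO library at either of those times, with DESeq2, with robust fitting in edgeR and without the time block. Gm38070 in Il1r1, the interleukin-1 receptor gene, had 163, 208, 367 and 223 WT counts and 107, 71, 108 and 73 KO counts, and was lower in KO at all 4 times by -1.30 ± 0.15 (edgeR adjusted p = 0.00027), beside -0.84 (adjusted p = 0.007) for the exons. Gm43197 in Gm20559 was at -1.25 ± 0.14 and Gm43165 in Galnt17, a glycosyltransferase gene, at -1.21 ± 0.14. All 5 members in Ldb2 were lower in KO, from -0.77 to -1.14, beside -0.74 for the exons. For Gm43508, 172.0 kb along Ldb2, counts were 571, 478, 485 and 347 in WT and 271, 155, 220 and 164 in KO, with no overlap between genotypes and a log2 fold change of -1.14 ± 0.09 (edgeR adjusted p = 4.8e-05).

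Highest in KO was Gm37626 in Gulp1, an engulfment adaptor gene, with 356, 251, 137 and 132 WT counts and 517, 348, 341 and 454 KO counts. It fell late in WT by 1.29 ± 0.20 on the log2 scale (edgeR adjusted p = 0.0024), and its late KO value was -0.01 ± 0.19 (adjusted p = 0.98). Over the 4 times it was higher in KO by 1.08 ± 0.20 (edgeR adjusted p = 0.0053), beside 0.45 (adjusted p = 0.026) for the exons. Gm43490 in Cacna2d1, a calcium channel subunit gene, was higher by 0.92 ± 0.18, Gm43360 in Atp2a2, an endoplasmic reticulum calcium pump gene, by 0.75 ± 0.15, and Gm37472 in Dleu2, a non-coding RNA gene, by 0.66 ± 0.08. The median genotype difference was 0.14 for members within 10 kb of the host's start, 0.01 at 10 to 30 kb, -0.10 at 30 to 100 kb and -0.24 beyond 100 kb, beside 0.01, -0.04, -0.05 and -0.08 for their hosts' exons. Within 10 kb 12 of 61 members were called higher and 2 lower in KO, at 10 to 30 kb 3 and 8 of 59, at 30 to 100 kb 3 and 14 of 100, and beyond 100 kb 5 and 17 of 80, beside the 6.81% and 9.44% of all genes. The 80 members sit in 42 hosts, and 4 of the 17 are in Ldb2.

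Member and host were less closely correlated at 15 min than at the late times, a difference that was not tested. The Pearson r between the log2 ratios of member and host was 0.278 in WT and 0.144 in KO at 15 min. It was 0.666 and 0.563 at 45 min in the same order; at 60 min it was 0.684 and 0.577, over 299 or 300 pairs. Both values of a pair come from the same libraries, and members of 1 host share its value.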

How the data were processed

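The data are whole-number counts per gene, deposited as 1 table with exon blocks, length and 8 library columns. Per the submitters' processing notes, the authors trimmed reads with cutadapt 1.12, aligned them with STAR to mm10 and counted them with featureCounts 1.5.0; DESeq2 is named there without a role. Per the labels' protocols the libraries were stranded, ribosomal-RNA-depleted and sequenced from 1 end for 50 bases. For the strand setting, multiply aligned reads and annotation release the method was not given in the sources used here; reads from opposite-strand exons and from near-identical copies may be included.

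A host is the multi-block gene with most counts around the model; distance runs from its annotated 5′ end to the near end of the model. The 15049 genes reaching 10 counts in 2 or more libraries were fitted with edgeR 4.0.16 (R 4.3.3; TMM scaling, quasi-likelihood test) on 6 cell means, the 45 and 60 min libraries of a genotype sharing 1, which leaves 2 residual degrees of freedom; KO was compared with WT in a fit with time as a block (3 degrees of freedom). P-values were Benjamini-Hochberg adjusted over all genes and called at 0.05; standard errors were derived from the fold change and the test statistic. The log2 ratio of member to host, with 0.5 added to each count, was fitted with limma 3.58.1 over 730 nested models of at least 200 bases. Intervals for ratios of single libraries are exact 95% intervals for counting error alone, since there was 1 library per genotype and time. The libraries hold no molecular identifiers. The floor of 3 counts corresponds to 0.180 to 0.265 CPM. Scripts were tested on simulated data.

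Named members are, for each edgeR comparison, the 5 highest and the 5 lowest called ones (the 3 largest where fewer are called), the 5 with most counts per kb, those whose host is in the NF-kappaB or immediate early list, those in the 5 hosts with most members (8 hosts with ties) and the 5 with the smallest p in each ratio test. Other members and hosts were named after their values were seen. Not every member that the rule names is described singly. The members and gene lists were chosen with earlier results of these data known. Alternatives were DESeq2 1.42.0, other scalings, filters, baselines and member rules, and leaving out each library.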

Additional observations from a re-analysis of the deposited data

Results flagged for a closer look

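For 2 members the late TNF response differed between the genotypes by a test of the difference itself. That is 0.667% of the members, near the 0.492% of all genes called higher in WT. Both calls were lost with 15 min as the baseline, with no filter on low counts and without the KO library at 45 min. The late log2 fold change of Gm43430, inside Nfkb1, was larger in WT than in KO by 2.054, and that of Gm38357, inside Noct, by 1.423, with edgeR adjusted p-values of 0.028 and 0.031. Over the alternatives tried the adjusted p ranged from 5.7e-07 to 0.341 for Gm43430 and from 0.0023 to 0.378 for Gm38357.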

How the results depend on the processing

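No paired analysis was possible because there was 1 library per genotype and time and the labels give no replicate numbers. For the members called higher and lower late in WT (23 and 14), DESeq2 gave 14 and 5, no filter on low counts 7 and 5, 0 and 15 min together as baseline 49 and 23, 15 min alone 21 and 9, total-count scaling 9 and 15, and leaving out 1 library 21 to 26 and 9 to 17. For those called late in KO (19 and 0), DESeq2 gave 10 higher, no filter 2, both early times as baseline 57 higher and 7 lower, 15 min alone 7 and 1, total counts 5 and 3, a longer minimum length of members 1 lower, and leaving out 1 library 12 to 50 and 0 to 5. For the difference (2 and 0), no filter and the 15 min baseline gave 0 higher, both early times 5 and 4, and leaving out 1 library 0 to 5 and 0 to 3. For KO against WT (23 and 41), DESeq2 gave 13 and 26, total counts 8 and 78, no filter 36 higher, no time block 8 and 11, and leaving out 1 library 8 to 32 and 19 to 47. The member to host ratio gave 0 to 2 members in WT, 0 to 10 in KO and 0 to 4 between genotypes when 1 library was left out, and with 15 min as baseline 0 in KO in place of 6. Past 2-fold with total counts, the WT members higher and lower numbered 0 and 3 at 15 min, 12 and 20 at 45 min, with 29 lower at 60 min. In KO 1 was lower at 15 min and 9 were higher and 21 lower at 45 min. The share of all genes past 2-fold with total counts was not counted. In the edgeR and DESeq2 tests, calls over all genes moved as well. Genes called higher late in KO numbered 198 in the main fit, 139 with DESeq2 and 57 with total counts. With both early times as baseline they numbered 706. Late in WT they numbered 628, 379, 304 and 1097 in the same order. The cause of these shifts was not tested. No named member changed direction in a comparison that called it. With total counts the members' median late WT log2 fold change went from 0.07 to -0.14, beside -0.22 for all genes. The median ratio of member to host between genotypes, 0.008, was -0.007 without WT or KO at 45 min and -0.03 without either at 60 min. The 15 min baseline was chosen after seeing the data. The late contrasts could not be fitted without their own 0 min library. Among named members, the late WT calls of Gm38357, Gm38034, Gm43430 and Gm36988 held under every alternative run; that of Gm43509 was lost with no filter (edgeR adjusted p = 0.057).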
